A study of Sus scrofa with 36 samples.

Results

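Livers of 18 pigs kept at thermoneutrality (TN) were divided into 6 and 12 by the signal of HAMP, which encodes the liver peptide hormone hepcidin. The 6 livers gave a HAMP signal above 12 on the log2 scale of the array, and they are called hepcidin-high. The other 12 gave a signal of 12 or less and are called hepcidin-low. Livers were selected on this HAMP value and on nothing else. The 18 animals are the TN pigs among 36 castrated male growing pigs, 6 of each breed at each temperature. The breeds were Large White (LW), Creole (CR) and their cross (F1). TN pigs are labelled 24 °C and were slaughtered before any heat exposure. Heat-stressed (HS) pigs were slaughtered after 4 or 5 days of heat (5 in the growth protocol), given as 30 °C in one label and as 32 °C in the protocol. All pigs entered the climatic room at 11 weeks of age and came from one experimental farm. RNA from a piece of the left liver lobe of each pig was labelled with Cy3 and hybridised to its own one-colour Agilent array. Of the 6 hepcidin-high TN livers, 3 were CR, 2 were LW and 1 was F1, against 3 CR, 4 LW and 5 F1 livers among the hepcidin-low. No treatment, diet or genotype distinguishes these livers in the labels, so the split comes from the measured HAMP value alone and HAMP itself carries no test here. A liver sample is a mixture of cell types, and fewer cells of a type cannot be told apart from less RNA per cell.

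Hepcidin is secreted by hepatocytes and removes ferroportin (SLC40A1), the iron exporter, from the surface of gut cells and macrophages, which lowers plasma iron. Its gene is switched on by bone morphogenetic proteins, chiefly BMP6 from sinusoidal endothelium, through SMAD factors when iron is plentiful, and by interleukin 6 through STAT3 during inflammation. Cells short of iron stabilise the mRNA of the transferrin receptor TFRC, and cells rich in iron lose it, while ferritin translation moves the other way. NCOA4 carries ferritin to the lysosome, where its iron is released.

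The probes below, each 60 bases long on the array, are shown because the results turn on their genes. They were read 5′ to 3′ from the scanner files. In the HAMP probe, capitals mark the 8 cysteine codons of its first reading frame; cysteines are the hallmark of the mature peptide. In the TFRC probe, which is printed up to its first in-frame stop, capitals mark that stop codon. The FABP3 and NCOA4 probes carry no capitals.
HAMP, A_72_P458477: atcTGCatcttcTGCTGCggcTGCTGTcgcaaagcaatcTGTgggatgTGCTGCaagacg
TFRC, A_72_P035411: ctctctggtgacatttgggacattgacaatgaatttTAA
FABP3, A_72_P440921: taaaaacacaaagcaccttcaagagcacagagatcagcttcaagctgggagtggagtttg
FABP3, A_72_P442936: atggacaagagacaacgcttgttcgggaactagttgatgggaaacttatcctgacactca
NCOA4, A_72_P611488: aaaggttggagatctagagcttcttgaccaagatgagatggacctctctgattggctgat
NCOA4, A_72_P037071: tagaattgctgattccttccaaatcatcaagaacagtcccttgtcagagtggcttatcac
In the RefSeq annotation of Sscrofa11.1, HAMP lies at chr6:44785863-44787303, TFRC at chr13:133976765-133997554, FABP3 at chr6:87943003-87950708 and NCOA4 at chr14:90505614-90531302.

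Some arrays stood apart before any gene was compared. On the first principal component, which held 18.6% of the variance, 10 of the 12 LW arrays lay between -44.2 and -24.8, whereas LW TN replicate 1 lay at -4.83 and LW TN replicate 6 at -3.04. The array least like the rest of its group was F1 TN replicate 3, with a mean correlation of 0.986. LW TN replicate 6 is hepcidin-high and the other two are hepcidin-low, so results are also given without these 3 arrays. The arrays were run on 5 slides. Each of slides 3, 4 and 5 held 2 hepcidin-high and 2 hepcidin-low TN livers, while the 2 TN livers of slide 1 and the 4 of slide 2 were all hepcidin-low. Among TN arrays the median signal ran from 70.0 to 91.5 and the number of spots well above background from 39644 to 43123. Median signal, background, spots well above background, mean correlation with the group and the first 2 principal components gave exact permutation p-values between 0.568 and 0.903 for high against low, with labels permuted within breed (two-sided, 1800 arrangements, smallest possible p 0.000556, adjusted p = 0.903 for each).

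HAMP varied widely among TN livers. On the probe that set the split, the hepcidin-low livers ran from 7.19 to 11.01 with a median of 7.89 (log2 signal, n = 12), and the hepcidin-high livers ran from 12.24 to 15.16 with a median of 13.56 (n = 6). The animals closest to the level were both F1: replicate 4 at 12.24 just inside the high group and replicate 2 at 11.01 just outside it. The next lower TN liver was at 9.66, so the level does not lie in the widest gap between values. The other 2 HAMP probes, one of which shares 45 bases with the first, followed it over the 36 arrays (r = 0.999 in each pairing, to 3 digits). In the HS pigs, which the split did not use, 15 livers lay between 12.60 and 16.84 and 3 between 8.30 and 9.29, one of each breed.

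**Figure D1:**
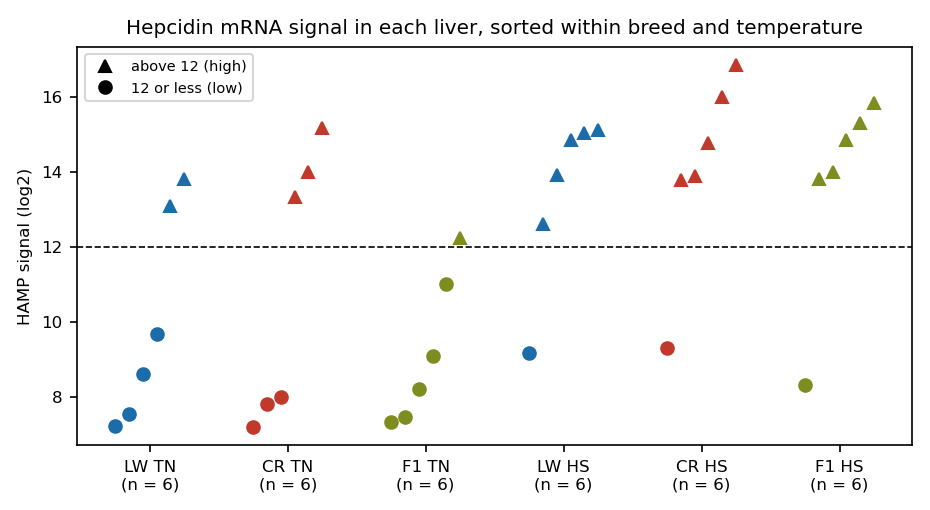
HAMP signal (log2, quantile normalized) in each of the 36 livers, sorted within breed and temperature; triangles lie above the level of 12 (dashed line) and circles at or under it. TN livers spread from 7.19 to 15.16, with 6 above the level, while 15 of the 18 HS livers lie above it.

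Across the liver transcriptome few differences between the hepcidin-high and hepcidin-low TN pigs were detected. A limma fit of the split and breed called 4 of 44793 probes at a false discovery rate of 0.05, which is 0.00893% of those tested. They belonged to 2 genes: TFRC fell at 1 probe (0.00223% of probes were called lower) and FABP3 rose at 3 (0.0067% were called higher). The count was 0 with slide as a block, 0 when LW TN replicate 6 was left out, 1 when CR TN replicate 1, 3, 4 or 6 or F1 TN replicate 4 was, and 8 when F1 TN replicate 2 was. Unadjusted, 2238 probes had a p under 0.05, or 5% of those tested. Taken at 1 probe per gene, 2 of 11417 genes passed, or 0.0175%. The median difference over all probes was -0.00104 (log2).

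TFRC, the receptor that brings transferrin-bound iron into cells, was lower in hepcidin-high TN livers, without overlap at 1 of its 4 probes. At that probe, A_72_P299604, its brightest, the 12 hepcidin-low livers ran from 13.22 to 15.20 with a median of 14.59, and the 6 hepcidin-high livers from 11.83 to 12.97 with a median of 12.56 (log2 signal). The hepcidin-low animal nearest to the high group was F1 TN replicate 2, which also had the HAMP value nearest to the level. TFRC fell by 2.02 on the log2 scale within breed (SE 0.25, limma adjusted p = 0.00982), a 4.07-fold lower signal. Within LW the difference was -2.59, within CR -1.82 and within F1 -1.49. Within slides 3, 4 and 5 it was -0.93, -1.97 and -2.60, each from 2 animals against 2. Leaving out 1 TN array at a time, it stayed between -2.18 and -1.91 and passed in 17 of 18 fits, the exception being the fit without LW TN replicate 6 (limma adjusted p = 0.0842). It did not pass with slide as a block (-1.99, limma adjusted p = 0.207) or without the 3 arrays that stood apart (-1.93, 0.177).

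The 3 further TFRC probes gave smaller differences of -0.93, -0.92 and -0.97 (log2). Each was lower in 6 of 6 hepcidin-high livers than the hepcidin-low mean of their breed, a count from the same values that adds no separate support to these probes. Their limma adjusted p-values, from 0.160 to 0.212, did not pass, and the groups overlapped at each: the highest hepcidin-high and the lowest hepcidin-low liver were at 6.50 and 6.41 (A_72_P035411), 5.83 and 5.82 (O1642), and 6.35 and 6.27 (the third). They are much dimmer than the first probe, with mean values between 5.68 and 7.22 in the 2 groups. In hepcidin-high TN livers O1642 ran from 5.43 to 5.83, near the floor, and the other 2 lay between 5.76 and 6.50. A pair of the 3 probes have the same sequence, so they add 2 independent sequences rather than 3. In HS pigs, which took no part in choosing the groups, TFRC was again lower in the 15 hepcidin-high than in the 3 hepcidin-low livers. The HS difference was -1.91 at the bright probe (SE 0.681, unadjusted p = 0.0118, limma adjusted p = 0.572) and -0.88 to -0.97 at the others, none of which passed after adjustment. The groups overlapped there: the 3 hepcidin-low HS livers ran from 14.68 to 15.30 and the 15 hepcidin-high from 11.16 to 15.31. All 3 hepcidin-low HS arrays lay on slide 2, which held 1 hepcidin-high HS array, at 12.79 for TFRC. Of the other hepcidin-high HS arrays, the 2 on slide 1 were at 14.86 and 14.44. Those on slides 3 to 5 ran from 11.16 to 15.31. The part of slide in the HS difference was not tested. The split's effect on TFRC did not differ detectably between temperatures (interaction 0.12, unadjusted p = 0.860, limma adjusted p = 0.999).

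NCOA4, the receptor that delivers ferritin for breakdown, gave positive differences at its 4 probes, none of which passed in TN livers. A_72_P037071 is given first as its probe of smallest p in TN and is not its brightest. At that probe the hepcidin-low TN livers ran from 8.91 to 9.56 with a median of 9.40 (log2 signal). The hepcidin-high ran from 9.28 to 10.07 with a median of 9.84. Only the lowest hepcidin-high liver, an LW pig, fell within the range of the hepcidin-low ones. The difference was 0.43 (SE 0.09, unadjusted p = 0.000143, limma adjusted p = 0.493). The probes A_72_P611488 and A_72_P674232 gave 0.49 and 0.41, again with limma adjusted p-values that did not pass, 0.511 and 0.953. At A_72_P674232, the brightest, the groups overlapped. The hepcidin-low livers ran from 9.52 to 10.62 there and the hepcidin-high from 10.11 to 10.83. The hepcidin-high livers were above the hepcidin-low mean of their breed in 6 of 6 animals at each of the 3 probes. These are the same animals and values as in the differences, so the count adds no separate support. Among the 12 rises of smallest p described below, 11 had all 6 hepcidin-high livers on 1 side of that mean. Within slides 3, 4 and 5 the difference at A_72_P037071 was 0.05, 0.63 and 0.42, each from 2 animals against 2. At A_72_P611488 it was 0.40, 0.41 and 0.65, and at A_72_P674232 0.19, 0.69 and 0.51. In HS pigs the same probes gave 0.63, 0.48 and 0.63, with unadjusted p-values of 4.1e-05, 0.000193 and 0.000311 and limma adjusted p-values of 0.368, 0.394 and 0.423, none of which passed. The last NCOA4 probe, O14451, gave 0.04 in TN and 0.13 in HS. Its signal was near the floor, at 5.84 to 6.35 over all livers. It has 0 forward reading frames free of stop codons and 1 on the reverse strand. That does not set the probe aside, since a HAMP probe with 0 forward and 2 reverse open frames followed the other HAMP probes.

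FABP3, a small cytosolic carrier of long-chain fatty acids best known from heart and muscle, was higher in every hepcidin-high TN liver than in any hepcidin-low one. At A_72_P424889 the hepcidin-low livers ran from 9.49 to 11.08 with a median of 10.19, and the hepcidin-high from 11.37 to 12.03 with a median of 11.72 (log2 signal). The groups did not overlap, and the 6 hepcidin-high livers were within 0.66 of each other. This separation belongs to the level of 12. F1 TN replicate 2, with HAMP at 11.01, was at 10.30 for FABP3, inside the hepcidin-low range. With the level at 11, which moves that animal to the high group, no FABP3 probe passed, and none passed with the level at 13. FABP3 rose by 1.48 (SE 0.196, limma adjusted p = 0.0134), a 2.79-fold higher signal. The probes A_72_P440921 and A_72_P442936 printed above also passed, with rises of 1.41 and 1.38 and a limma adjusted p of 0.0376 for both, whereas A_72_P442944, which overlaps the last by 13 bases, gave 1.41 with an adjusted p of 0.0664. Within LW, CR and F1 the difference at the first probe was 1.33, 1.54 and 1.63, and within slides 3, 4 and 5 it was 1.60, 1.55 and 1.62. Leaving out 1 TN array at a time, it stayed between 1.43 and 1.56 and passed in 12 of 18 fits. It did not pass without CR TN replicate 1, 3, 4 or 6 (limma adjusted p from 0.0542 to 0.0601), F1 TN replicate 4 (0.199) or LW TN replicate 6 (0.0938), with slide as a block (1.61, 0.219), or without the 3 arrays that stood apart (1.49, 0.177).

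In HS pigs the FABP3 difference was smaller and did not pass. The difference between hepcidin-high and hepcidin-low HS livers was 0.39 at the first probe (SE 0.336, unadjusted p = 0.266, limma adjusted p = 0.842) and 0.26 to 0.43 at the others. The hepcidin-high HS livers ran from 9.12 to 11.91, and the 3 hepcidin-low HS livers from 9.65 to 10.16. The test of the difference between temperatures gave -1.11 at the first probe (unadjusted p = 0.00778) and -0.96 to -1.17 at the others, none of which passed after adjustment over all probes (limma adjusted p = 0.999 at each). No probe passed that interaction test, 0% of 44793, with 1813 at an unadjusted p under 0.05, or 4.05%.

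**Figure D2:**
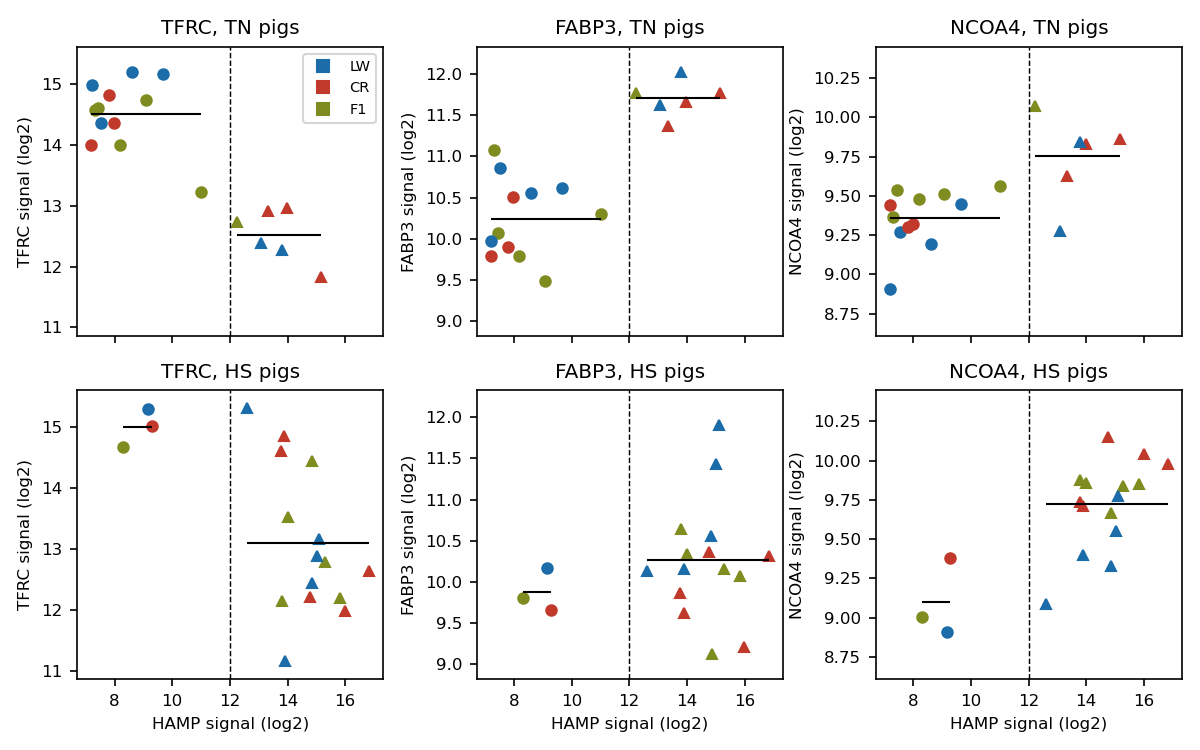
TFRC (A_72_P299604), FABP3 (A_72_P424889) and NCOA4 (A_72_P037071) signal against HAMP signal (all log2) in 18 TN livers (top row) and 18 HS livers (bottom row); colours are breeds, triangles hepcidin-high, circles hepcidin-low, the dashed line the level of 12 and each horizontal line a group mean. In TN livers the TFRC triangles lie at or under 12.97 and the circles at or over 13.22, and the FABP3 triangles at or over 11.37 and the circles at or under 11.08. In HS livers the FABP3 triangles spread from 9.12 to 11.91. NCOA4 is drawn at its probe of smallest p in TN, not at its brightest.

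The relation with HAMP was also described inside the groups. Over the 12 hepcidin-low TN livers TFRC gave r = -0.31 (permutation p = 0.327) and rho = 0.07 (permutation p = 0.821), and over the 15 hepcidin-high HS livers r = -0.50 (permutation p = 0.0611) and rho = -0.40 (permutation p = 0.145). Without the 2 animals farthest from the median HAMP value, r was 0.27 in the first set, with its sign turned, and -0.33 in the second. NCOA4 at its brightest probe, A_72_P674232, gave r = 0.57 (permutation p = 0.0258, adjusted 0.155) and rho = 0.54 (permutation p = 0.0435, adjusted 0.261) over the hepcidin-high HS livers, and r = 0.38 without the 2 farthest animals. It gave r = 0.16 and rho = 0.17 (permutation p = 0.621 and 0.603) over the hepcidin-low TN livers, and r = 0.29 without the 2 farthest. FABP3 gave r = -0.01 and rho = 0.01 over the hepcidin-low TN livers (permutation p = 0.980 and 0.974) and r = 0.02 and rho = 0.01 over the hepcidin-high HS livers (0.930 and 0.964), with r = -0.31 and -0.02 without the 2 farthest. None of the 6 relations passed after adjustment, and the 3 genes were chosen after their values were seen.

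No gene listed among the inputs that control hepcidin passed in the TN livers. Of 24 genes listed for BMP-SMAD signalling and iron sensing, 17 had a kept probe; none passed at a false discovery rate of 0.05, 2 were higher and 0 lower at an unadjusted p under 0.05, and the median difference was -0.02, beside -0.000570 over 11417 genes taken at 1 probe each, of which 5.24% had an unadjusted p under 0.05 (2.93% higher and 2.3% lower). ID1, a direct SMAD target that rises with BMP signalling in liver, had the largest difference of the list, 0.60 (SE 0.224, unadjusted p = 0.0152, limma adjusted p = 0.953). It was 9.79 to 11.16 in hepcidin-low and 10.39 to 12.14 in hepcidin-high livers, and 1.18 higher within CR 0.16 within LW and 0.26 within F1, and its other probe had the opposite sign. ACVR2A, an activin and BMP receptor, gave 0.15 (unadjusted p = 0.0359). SMAD7, the feedback inhibitor that BMP signalling also induces, gave 0.03 (unadjusted p = 0.794), and BMP6 itself was dim, at -0.16 (unadjusted p = 0.180). Hemojuvelin, the BMP co-receptor, called HFE2 in the annotation, gave 0.46 (SE 0.338, unadjusted p = 0.191) with 5 of 5 probes in that direction, and TFR2, the hepatocyte's second transferrin receptor, -0.07 (unadjusted p = 0.498). HFE, TMPRSS6 and ERFE were not measured by a named probe.

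Among 30 measured genes of iron transport, storage and heme, TFRC was the one that passed. At an unadjusted p under 0.05 the list held NCOA4 as its one higher gene and TFRC and SLC11A2 as its 2 lower ones, 3 of 30 beside 5.24% of all genes, with a median difference of 0.01. SLC11A2, the divalent metal transporter that moves iron out of endosomes after TFRC brings it in, gave -0.40 in TN (SE 0.146, unadjusted p = 0.0132, limma adjusted p = 0.953) and -0.43 in HS (unadjusted p = 0.0341). Its hepcidin-low livers ran from 10.39 to 11.52 and its hepcidin-high from 10.34 to 10.80, so the groups overlapped. In 6 of 6 hepcidin-high livers it lay below the hepcidin-low mean of their breed, a count from the same values as the difference. The ferritin chains gave 0.02 for FTH1 and 0.05 for FTL, transferrin (TF) 0.02 and ferroportin SLC40A1 -0.07, with unadjusted p-values from 0.405 to 0.749. FTH1, FTL and TF lie near the top of the array's range, above 18, and their probes disagreed in sign: 6 of 12 for FTH1, 1 of 2 for FTL and 1 of 6 for TF had the sign of the brightest.

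No inflammation marker passed. Of 22 measured positive acute phase proteins none passed, 1 was higher and 3 were lower at an unadjusted p under 0.05, beside 2.93% of all genes higher and 2.3% lower, and the median difference was -0.10. The serum amyloid SAA3 gave -0.29 (SE 0.523), C-reactive protein CRP 0.33 (SE 0.255), haptoglobin HP 0.00 (SE 0.0520) and ITIH4, a major acute phase protein of pigs, -0.01 (SE 0.182), with unadjusted p-values from 0.211 to 0.963; for HP 1 of 7 probes had the sign of the brightest. One hepcidin-high animal, LW TN replicate 4, differed from the other 5, with SAA3 at 18.10 where they ran from 12.84 to 14.50, and ITIH4 at 18.22 where they ran from 16.53 to 16.99. Without that animal SAA3 gave -0.95 and ITIH4 -0.24. The 3 lower members were LBP, which binds bacterial lipopolysaccharide, at -0.41 (unadjusted p = 0.00327), and the fibrinogen chains FGB and FGG at -0.23 and -0.15 (unadjusted p = 0.00735 and 0.0319). The higher one was MBL2, a mannose-binding lectin of the complement system, at 1.75 (SE 0.565, unadjusted p = 0.00634, limma adjusted p = 0.904). MBL2 ran from 9.95 to 14.55 in hepcidin-low livers and from 13.45 to 14.22 in hepcidin-high ones. None of 17 IL6-STAT3 and NF-kB genes passed; JAK2, the kinase below many cytokine receptors, was the one at an unadjusted p under 0.05, at -0.23 (unadjusted p = 0.0254), and SOCS3 and STAT3 gave -0.16 and -0.08. Of 6 negative acute phase proteins only APOA1 had an unadjusted p under 0.05, at -0.16 (unadjusted p = 0.0191).

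**Figure D3:**
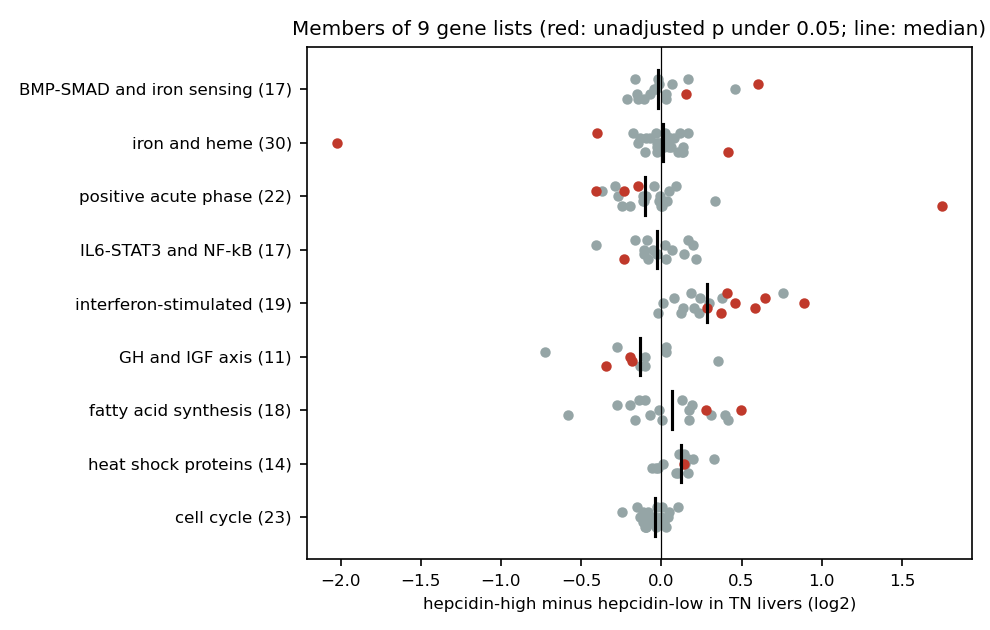
Difference between hepcidin-high and hepcidin-low TN livers (log2, within breed) for each measured member of 9 gene lists, 1 probe per gene, with the number of measured members in brackets; red points have an unadjusted p under 0.05 and the black line is the list's median. TFRC, at -2.02, is the one member that passed a false discovery rate of 0.05, and the interferon-stimulated genes have a median of 0.28.

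Interferon-stimulated genes were the list with the most members shifted one way, although none passed. Of 19 measured members 18 gave a positive difference and 7 had an unadjusted p under 0.05, all higher, with a median of 0.28; of all 11417 genes, 49.7% gave a positive difference and 2.93% were higher at that level. Among them ISG15, a ubiquitin-like protein, gave 0.89 (SE 0.284, unadjusted p = 0.00579, limma adjusted p = 0.900), and ISG20, an exonuclease, 0.65 (unadjusted p = 0.00578). By breed the values were unequal, a difference that was not tested: the mean level of the list differed by 0.74 between the 2 hepcidin-high and 4 hepcidin-low LW livers, and by 0.09 within CR and 0.11 within F1. In HS pigs the list's median was -0.30. These genes were singled out after their values were seen.

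Other metabolic lists held scattered members at an unadjusted p under 0.05, and none passed; over all genes 2.93% were higher and 2.3% lower at that level. In fatty acid synthesis 2 of 18 genes were higher at that level, malic enzyme ME1 at 0.49 (SE 0.196, unadjusted p = 0.0218) and the desaturase FADS1 at 0.28 (unadjusted p = 0.0472). Glutamine synthetase GLUL, which marks the hepatocytes around the central vein, gave 0.76 (unadjusted p = 0.00433). TBX3, a transcription factor of the same zone, gave 0.39 (unadjusted p = 0.0167). These were the 2 of 7 pericentral genes higher at that level, with 0 lower. By sign 5 of the 7 were positive, OAT gave -0.59 and the median was 0.11. Of 9 measured periportal genes none had an unadjusted p under 0.05. Of 11 genes of the growth hormone and IGF axis 3 were lower at an unadjusted p under 0.05 and 0 higher. These were the binding proteins IGFBP2, IGFBP3 and IGFBP4, at -0.35, -0.19 and -0.20. By sign 3 of the 11 were positive, SOCS2 was the lowest at -0.72 and the median was -0.13. In the endoplasmic reticulum list PDIA6 and PDIA4, which form disulfide bonds, gave -0.26 and -0.32 and HERPUD1 0.19. PPARGC1A, a coactivator of gluconeogenesis and fatty acid oxidation, gave -0.37 (unadjusted p = 0.0383), the one of 15 fasting genes at that level.

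Genes named for their change between HS and TN pigs did not pass between hepcidin-high and hepcidin-low TN livers. MFSD2A, a transporter of lysophospholipids, gave -0.20 with an SE of 0.866, the elongase ELOVL2 0.13, the deubiquitinase USP2 0.33, the transcription factor KLF9 0.24 and ADPRH, which removes ADP-ribose from proteins, -0.04, with unadjusted p-values from 0.107 to 0.823. Between all HS and all TN livers, where 382 of 44793 probes passed, or 0.853%, the same genes gave -2.16, -1.39, -0.96, -0.63 and 0.42, with limma adjusted p-values from 0.000453 to 0.0366. For TFRC, FABP3 and NCOA4 at the probes above, HS minus TN was -0.43, -0.53 and 0.13, with limma adjusted p-values of 0.721, 0.281 and 0.626. That comparison shares its 18 TN animals with the hepcidin split, so the values are only set side by side.

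Outside these lists, the 12 rises and 12 falls of smallest p were described, 1 probe per gene. FABP3 and TFRC were the 2 that passed; the other 22 had limma adjusted p-values from 0.493 to 0.773. After FABP3 the rises included the fatty acid hydroxylases CYP4A21 at 0.41 (SE 0.0888, 5 of 5 probes at an unadjusted p under 0.05) and CYP4A24 at 0.45 (SE 0.0972, 2 of 2 probes), near-identical genes that probes may not tell apart. HSD17B2, which inactivates sex steroids, gave 0.73 and SCT, the hormone secretin, 1.26. SEC14L3, a lipid-binding protein, gave 0.40 and ACOT13, a mitochondrial acyl-CoA thioesterase, 0.39. MAD2L2 (0.43), NME5 (0.36), VPREB1 (0.58), C17ORF91 (0.42) and LOC100521594 (0.44) completed the rises.

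After TFRC the falls were between -0.56 and -0.20. EPAS1, the hypoxia-inducible factor HIF-2 alpha, whose own mRNA carries an iron-responsive element, gave -0.27 (SE 0.0686, unadjusted p = 0.00105) in TN and -0.33 (unadjusted p = 0.0160) in HS. Its hepcidin-low TN livers ran from 12.87 to 13.49 and its hepcidin-high from 12.75 upward with a median of 12.87, overlapping them. LOC100521680, described in the files as histone H3.3, gave -0.35 and did not pass. CLDN5, a tight junction protein of endothelium, gave -0.33, the nuclear protein HMGN1 -0.33, the receptor LPAR6 -0.31, the ribosomal protein RPS12 -0.20 and the aminopeptidase DNPEP -0.21. IVNS1ABP (-0.56), GUCA2B, the gut peptide uroguanylin (-0.48), FGF11 (-0.36) and MYRIP (-0.34) made up the rest.

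The HS pigs took no part in naming these 24 genes. The difference had the same sign in HS for 21 of 24, beside 58.4% of 11417 genes. Exceptions were VPREB1, ACOT13 and MYRIP. Slide is mixed into that comparison, since all 3 hepcidin-low HS arrays and 4 of the 12 hepcidin-low TN arrays lay on slide 2. Within slide 2, from 1 hepcidin-high HS array against 3, these exceptions stayed opposite to TN. So were NME5, MAD2L2, LPAR6, GUCA2B, FGF11 and CLDN5 (CLDN5 at 0.07), while the rest of the 24 kept the TN sign. The part of slide in these signs was not tested. At an unadjusted p under 0.05 in HS were 1 of the 12 rises, LOC100521594, and 5 of the 12 falls, TFRC, HMGN1, LOC100521680, EPAS1 and CLDN5, beside 6.98% of all genes. With 15 hepcidin-high and 3 hepcidin-low HS livers, no probe passed a false discovery rate of 0.05 (0% of 44793), with 3327 at an unadjusted p under 0.05, or 7.43%. With slide as a block 41 probes passed there, with the 3 hepcidin-low arrays on 1 slide beside a single hepcidin-high one.

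**Figure D4:**
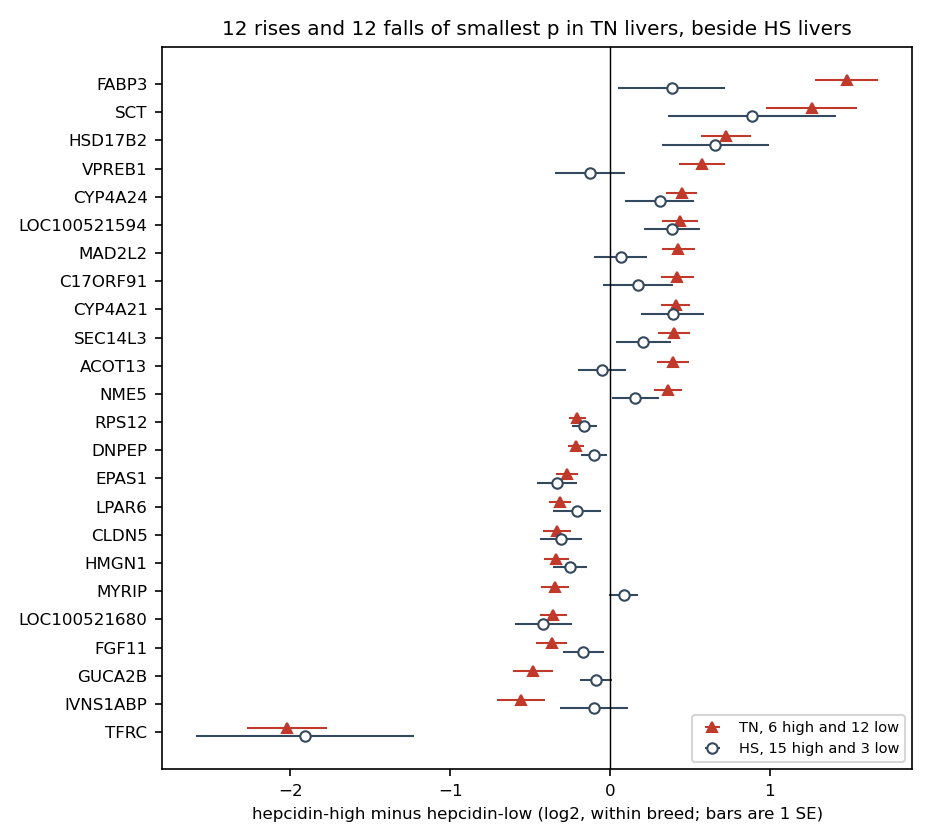
Difference between hepcidin-high and hepcidin-low livers (log2, within breed, bars 1 SE) for the 12 rises and 12 falls of smallest p in TN livers (triangles, 6 against 12) and for the same genes in HS livers (open circles, 15 against 3). TFRC lies at -2.02 in TN and -1.91 in HS, whereas FABP3 lies at 1.48 in TN and 0.39 in HS.

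When the HAMP value itself was fitted over all 36 livers with breed and temperature in the model, an alternative chosen after seeing the data, 13 of 44793 probes passed, or 0.029% (4 higher, 0.00893%, and 9 lower, 0.0201%). All 4 TFRC probes were among them, with slopes from -0.36 to -0.17 per log2 unit of HAMP, and so were 3 of 4 NCOA4 probes, with slopes from 0.08 to 0.09 (limma adjusted p = 0.000168 at A_72_P037071 and 0.000504 at TFRC's bright probe). No FABP3 probe passed (limma adjusted p from 0.0915 to 0.164). The other named genes were SSR2, a subunit of the signal sequence receptor of the endoplasmic reticulum, at a slope of -0.05, the ribosomal protein RPL6 at -0.04, and ACP5, an iron-containing acid phosphatase of macrophages and osteoclasts, at -0.16. The called probe of each of these 3 genes was not its brightest, and at the brightest the limma adjusted p was 0.73 for SSR2, 0.522 for RPL6 and 0.0851 for ACP5. At its called probe, ACP5 differed between the groups by -0.64 in TN (SE 0.230, unadjusted p = 0.0124) and -1.05 in HS (SE 0.331, unadjusted p = 0.00533). The unnamed probe A_72_P136536 gave -0.87 in TN (unadjusted p = 0.000225) and -0.92 in HS (unadjusted p = 0.00280), in TN the next largest after TFRC among the 13. The ACP5 probe and A_72_P136536 were picked from the fit over these same livers, so their group differences add no separate support. The last 2 unnamed probes were A_72_P292659, with a negative slope, and A_72_P705290, with a positive one. With slide added to that model 2 probes passed, both of NCOA4 (limma adjusted p = 0.00721 each), and TFRC's bright probe gave an adjusted p of 0.0510.

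Markers of the cells in the samples gave these values. Hepatocyte markers were the brightest, with a mean over 7 measured genes of 17.85 to 17.95 in hepcidin-high and 17.91 to 18.09 in hepcidin-low livers, and 3 of the 7, FGB, APOA1 and APOH, were lower at an unadjusted p under 0.05, beside 2.3% of all genes. The mean of 8 macrophage markers was 11.09 to 12.27 against 11.38 to 12.26, and that of 5 erythroid markers, cells that hold much TFRC, from 10.32 to 11.56 in hepcidin-high livers and from 10.40 upward in hepcidin-low ones, overlapping them. The erythroid mean differed by -0.45 within CR, by -0.32 within LW and by 0.84 within F1, and no member had an unadjusted p under 0.05. Lymphocyte, neutrophil and stellate cell markers had no member at that level, and endothelial and bile duct markers 1 each, LYVE1 at -0.32 and SOX9 at 0.26. The part of cell makeup in the TFRC and FABP3 differences was not tested.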

How the data were processed

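Liver RNA of 36 pigs was measured on one-colour Agilent porcine arrays. The authors extracted spot values from the scanned images with Agilent Feature Extraction 10.10.1.1 and tested them with limma and dream; the scanner files they deposited hold linear intensity values per spot. They also deposited a table of quantile normalized log2 values for 42051 probes, with column medians of 7.66. Its values appear centred per probe, a centring not given in the sources used here. Its probe means did not follow those of the scanner values (correlation -0.125), while its differences from the probe mean did (correlation 0.959). That table served as an alternative only.

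Here log2 median signals were quantile normalized over 60306 non-control spots, 107 non-uniform spots were set missing, and a probe was kept where 6 or more of the 36 arrays had it well above background (44796 of 60305 probes). High and low livers were split at a HAMP value of 12, the 3 HAMP probes were left out, and limma 3.58.1 fitted the split with breed over 18 TN arrays, over 18 HS arrays, and with temperature and their product over 36. P-values were Benjamini-Hochberg adjusted over all 44793 probes tested. Symbols came from the files and from RefSeq (Sscrofa11.1), for 23898 kept probes and 11417 symbols, and the brightest kept probe stood for a gene. Named genes were the 12 largest rises and 12 largest falls that passed, filled by smallest p, members of the BMP-SMAD, iron, acute phase and IL6-STAT3 lists at an unadjusted p under 0.05, and a set of iron, inflammation and heat genes; others are said to be chosen after their values were seen. ACP5, SSR2, RPL6 and members of other lists were also named after their values were seen. Members and lists were chosen with earlier results of these data known, and some listed genes are not reported here and were left out of every list's count and median. Labels give no pen, slaughter day, sire or dam, which the study's model holds, so these were not analysed here, and p-values measure the spread between these animals only. The number of arrays limits the precision. The steps were tested on simulated data.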

Additional observations from a re-analysis of the deposited data

Results flagged for a closer look

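In 7 results 1 of the 6 hepcidin-high TN livers lay far from the other 5, with a gap to its nearest neighbour above Dixon's critical value of 0.625 times the range; chance flags about 1 in 20 groups, and 91 values were looked at. LW TN replicate 4 stood out for 2 acute phase genes, with SAA3 at 18.10 (nearest 14.50) and ITIH4 at 18.22 (nearest 16.99). CR TN replicate 6 was low for APOA1, at 18.28 (nearest 18.50), for ADPRH, at 9.92 (nearest 10.21), whose difference turned from -0.04 to 0.00435 without it, and for one dim TFRC probe, at 5.76 (nearest 6.19), whose difference was -0.92 without it. CR TN replicate 5 was high for SMAD7, at 10 (nearest 9.53), and the SMAD7 difference turned from 0.03 to -0.05 without it. LW TN replicate 6 was low for IGFBP2, at 14.42 (nearest 14.97), and the difference of IGFBP2 was -0.22 without it.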

How the results depend on the processing

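Of the 4 probes called in TN livers, the count became 0 with log2 processed signals scaled to the 75th percentile, 0 with the authors' log2 table, 0 with slide as a block, 0 with the level at 13, 0 without LW TN replicates 1 and 6 and F1 TN replicate 3 together, 1 with the HAMP value as a covariate, 2 with no filter on dim probes and 2 with 1 value per gene. Leaving out 1 array gave 0 (without LW TN replicate 6) to 8 (without F1 TN replicate 2), and 1 without CR TN replicate 1, 3, 4 or 6 or F1 TN replicate 4. Of 3 alternatives chosen after seeing the data, slides 3 to 5 alone gave 0, the HAMP value over 36 arrays 13, and the same with slide 2. The other alternatives gave 3 to 5. With the level at 11 all 5 were lower, so no FABP3 probe passed. With 1 fit over 36 arrays all 4 were higher and TFRC did not pass (limma adjusted p = 0.448). TFRC kept its sign throughout, as did FABP3. With the percentile scaling both had a limma adjusted p of 0.0502, with the table of the authors adjusted p-values of 0.383 and 0.288, and with slides 3 to 5 alone 0.626 and 0.54. In HS livers the count of 0 became 41 with slide as a block and 1 with 1 fit over 36 arrays, and ran from 0 to 1 (without CR HS replicate 2 or LW HS replicate 1) when 1 array was left out. The interaction count of 0 ran from 0 to 2, with 2 without CR HS replicate 2 and 1 without LW HS replicate 1 or LW TN replicate 6. For each of these changes the cause was not tested. No paired analysis was possible because replicate numbers only name animals in order and pair none. Only 6 livers were hepcidin-high and 3 HS livers hepcidin-low, and the number of arrays limits the precision.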
